A study of Mus musculus with 16 samples.

Results

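RAW264.7 is a mouse macrophage-like cell line. The comparison described here sets the latest sample of a time course with lipopolysaccharide (LPS, a component of the outer membrane of Gram-negative bacteria), taken at 16 h, against its samples at 75 and 90 min. It uses 6 of the 16 libraries of the series: the 3 input RNA libraries and the 3 ribosome footprint libraries of cells given 100 ng/ml LPS for 75 min, 90 min or 16 h. The 6 were chosen by these time labels alone. Checks with an early library left out also used the other LPS libraries from 15 min on, fitted with a curve over time. They changed the model as well as the libraries, so the effects of these changes cannot be told apart. Footprints are the stretches of mRNA covered by a ribosome. Cycloheximide, a drug that holds ribosomes on the mRNA, was present in the wash and the lysis, per the labels' protocols. Footprints were what RNase I left in the monosome part of a sucrose gradient, and input was cytoplasmic RNA of the same lysate broken by alkaline hydrolysis. Ribosomal RNA was depleted from both materials, and both were size-selected. There was 1 library per time point and material, and the labels do not say whether the time points came from separate cultures. The untreated libraries do not enter, and cells at 16 h had also spent longer in culture, so the effects of LPS and of time in culture cannot be told apart. With bulk RNA, a change in the cells' composition and a change in RNA per cell cannot be told apart either.

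As background, LPS binds TLR4 and drives NF-kappaB and MAP kinases, which switch on immediate early genes and the first cytokines, and it drives IRF3, which switches on interferon beta. Secreted interferon then acts back on the cells through its receptor and raises a large set of antiviral genes. Ribosomal protein and translation factor mRNAs begin with a run of pyrimidines (the TOP motif, terminal oligopyrimidine), which places their translation under the control of mTORC1. The mRNA of ATF4, a transcription factor of the integrated stress response, carries upstream reading frames that limit its translation in unstressed cells.

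The deposited table holds counts for 13832 genes, and each of the 6 libraries sums to between 6702930 and 6702932 counts. Counts are printed unscaled; the TMM scaling factors used in the fits were 0.984 to 1.02 in input and 0.947 to 1.08 in footprints. Of these genes, 9765 were tested in input, 9471 in footprints and 9360 in ribosome density (footprints relative to input). Genes had to reach 20 counts in at least 1 of the 3 libraries of the material, and in both materials for density. Each was fitted in edgeR by quasi-likelihood, p-values were adjusted by Benjamini and Hochberg's method over all genes tested, and every adjusted p below comes from that fit. A gene was called, and is said to have risen or fallen, where adjusted p was under 0.05 and the 16 h library differed from the 75 min and from the 90 min library each by at least 2-fold (1.5-fold for density). The only spread available is that between 75 and 90 min, which are different times and not replicates, and the single 16 h library is assumed to vary like them, so no difference here has a replicate check. The 75 and 90 min libraries ranked genes almost alike (Spearman's rho 0.995 in input and 0.994 in footprints, over 9876 genes). Between either of them and 16 h rho was 0.888 to 0.901. These rank correlations are descriptions across genes.

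At 16 h, 1101 genes had risen in input (11.3% of those tested) and 666 had fallen (6.82%). In footprints 1150 had risen (12.1%) and 733 had fallen (7.74%). The median log2 difference over all genes tested was -0.00026 in input, 0.013 in footprints and -0.016 in density. The same changes were seen in both materials for most called genes. Of the genes tested in both, 872 had risen in input and in footprints, which is 84.7% of the input calls and 78.6% of the footprint calls. A further 513 had fallen in both (81.0% and 70.6%), and 0 went in opposite directions. Density moved far less often: it rose for 57 genes (0.609%) and fell for 112 (1.2%). Scaling by total counts in place of TMM factors raised the median of all genes to 0.17 in footprints and 0.19 in density, and changed the density calls to 217 higher and 92 lower and the footprint calls to 1342 higher and 490 lower. The genes that reached 20 counts only at 16 h had to be higher there: they numbered 408 in input and 518 in footprints, of which 316 and 365 were called. For lists with such members, or with members that reached it only early, the counts without them are given too.

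**Figure D1:**
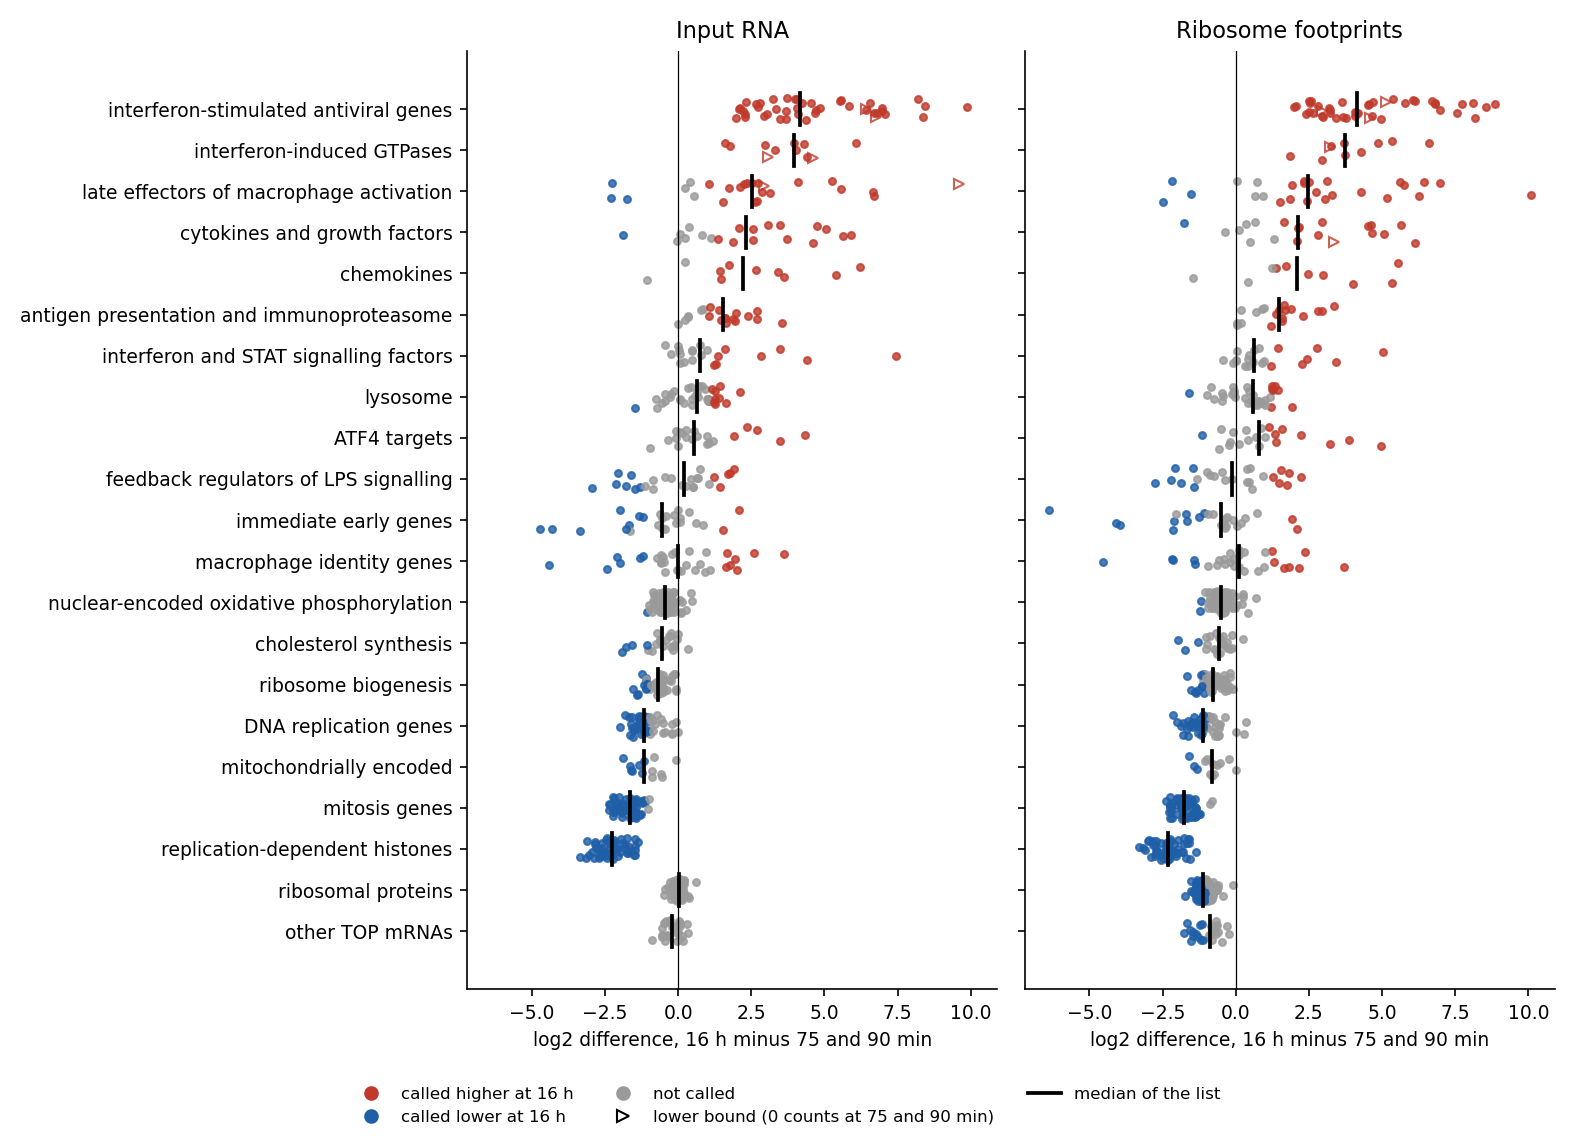
Log2 difference in input and footprints between 16 h and the mean of 75 and 90 min for the members of each gene list; each point is a gene (red called higher, blue called lower, grey not called), open triangles are lower bounds for genes at 0 counts in both early libraries, and the bar is the list's median. Interferon-stimulated genes lie furthest above 0 and replication-dependent histones furthest below, while ribosomal protein genes lie near 0 in input (median 0.01) and below 0 in footprints (median -1.10).

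Apart from marker lists with 1 tested gene, the antiviral genes and GTPases induced by interferon had the highest list medians in input (4.16 and 4.04, the latter 3.97 with genes at 0 in both early libraries set to their lower bound). Ifnb1, which encodes interferon beta, counted 7, 9 and 29 reads in input at 75 min, 90 min and 16 h, and 9, 8 and 41 in footprints; it was called higher in both (log2 difference 1.88 ± 0.43 SE, adjusted p = 0.0075 in input), although few reads support it. Of the 21 interferon and STAT signalling factors tested, 8 had risen in input and 7 in footprints, and 0 had fallen. Stat2, which carries the signal of the type I interferon receptor, had 51, 55 and 1102 reads in input, a 21.3-fold rise, and Irf9, a DNA-binding factor of the same pathway, had 78, 71 and 520. Irf3, the factor that acts upstream of interferon and is regulated at the protein level, had 206, 154 and 149 and was not called (-0.24 ± 0.19, adjusted p = 0.33).

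Of the 44 interferon-stimulated antiviral genes tested in input (of 45 in the table), 44 had risen, with a median of 4.16; 14 of them reached 20 counts only at 16 h, and of the other 30, 30 had risen. In footprints 44 of 44 had risen with a median of 4.36, or 4.14 with genes at 0 in both early libraries set to their lower bound; 31 did not depend on the 16 h library to enter, and 31 of these had risen. Isg15, a ubiquitin-like modifier, had 13, 34 and 3101 input reads and 52, 81 and 8308 footprint reads, a rise of 134.5-fold and 111.7-fold (log2 7.07 ± 0.21 and 6.80 ± 0.17 SE, adjusted p = 4.9e-07 in input). Rsad2 encodes viperin, an enzyme that makes a chain-terminating nucleotide. Its 14, 19 and 5612 input reads gave a 345.8-fold rise, and its 19, 7 and 5453 footprint reads a 372.9-fold rise. Cmpk2, its genomic neighbour and a nucleotide kinase, rose 292.9-fold in input (8, 4 and 1751 reads). For these 3 genes both early libraries held few reads and lay far below the 16 h library. Rsad2 in both materials and Cmpk2 in input reached 20 counts only at 16 h.

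Ifit3 and Mx1 had 0 reads in both early input libraries. Ifit3, which binds viral RNA together with Ifit1, reached 323 input reads at 16 h, at least 107.7-fold more, in unscaled counts, than a floor of 3 reads per library. Mx1, a GTPase that blocks viral ribonucleoproteins, reached 259, at least 86.3-fold. At the other end of the list were genes already present early: Parp9 went from 272 and 248 to 1074 input reads (4.23-fold) and Trim25, a ubiquitin ligase of the RIG-I pathway, from 506 and 545 to 2247 (4.38-fold). Oasl1, known to bind Irf7 mRNA and limit its translation, went from 639 and 818 to 5808 in input and from 575 and 756 to 7023 in footprints. Usp18, the protease that removes Isg15 from proteins and damps the interferon receptor, rose more than these, from 40 and 38 to 2185. Of the interferon-induced GTPases, which attack the vacuoles of intracellular microbes, 11 of 11 tested had risen in input, but 7 entered only through 16 h; of the other 4, 4 had risen. Irgm1 had 78, 69 and 1127 input reads and 81, 71 and 1099 footprint reads (3.97 ± 0.11 in input).

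RefSeq promoters, 300 bases from 250 before to 50 after the start in GRCm38.p6, could be matched for 7841 of the 9876 genes fitted. The core of the interferon-stimulated response element, the sequence that IRF9 and other IRFs recognise, was written as GAAANNGAA. It was searched on both strands of the 250 bases before the start. It was present in 17 of 36 promoters of the antiviral list (47.2%) and 7 of 8 of the GTPases (87.5%), beside 590 of 7753 over all genes tested in input (7.61%), 13.6% of genes called higher in input and 6.81% of those called lower. A match is a description of the letters and not a mapped site. The promoters of Isg15, Rsad2, Ifit3 and Irgm1 are shown because they hold this core and belong to lists with high medians; each stretch is written in the direction of the gene, with the core in capitals. They lie at chr4:156200819-156200938 (minus strand), chr12:26456453-26456592 (minus strand), chr19:34583369-34583528 (plus strand) and chr11:48871421-48871540 (minus strand). Overlapping cores form 1 longer run in Isg15 and in Irgm1.
Isg15: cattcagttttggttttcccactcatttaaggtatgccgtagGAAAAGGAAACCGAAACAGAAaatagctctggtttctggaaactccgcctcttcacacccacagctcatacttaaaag
Rsad2: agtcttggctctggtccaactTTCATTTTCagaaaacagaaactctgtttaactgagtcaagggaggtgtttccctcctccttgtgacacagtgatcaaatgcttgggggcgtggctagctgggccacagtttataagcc
Ifit3: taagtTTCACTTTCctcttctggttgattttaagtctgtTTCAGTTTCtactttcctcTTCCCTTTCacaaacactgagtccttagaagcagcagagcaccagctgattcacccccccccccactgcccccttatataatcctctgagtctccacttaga
Irgm1: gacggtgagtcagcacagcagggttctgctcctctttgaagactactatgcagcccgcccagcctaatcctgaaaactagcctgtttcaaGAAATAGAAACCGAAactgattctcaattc

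Cytokines split into those that went on rising after 90 min and those that did not. Of 20 cytokines and growth factors tested in each material, 13 had risen in both input and footprints and 1, Tnfsf9, had fallen; 8 entered through 16 h only in input, and of the other 12, 5 had risen. With 20 counts required in each of the 3 input libraries, 11 cytokines were left and 4 had risen. Il6 had 7, 26 and 968 input reads (59.7-fold) and 4, 35 and 1519 footprint reads (69.3-fold). Csf3, the granulocyte growth factor, had 73, 187 and 3378 input reads (26.6-fold). Il1rn, the receptor antagonist that blocks interleukin 1, had 8, 13 and 514 and reached 20 counts only at 16 h. Il18 had 93, 140 and 952. By contrast, Tnf had 3989, 5483 and 4541 input reads and was not called in either material (-0.03 ± 0.17 in input, adjusted p = 0.9), with the 16 h library between the early ones. Il1b had 1797, 3411 and 4488 and was not called, since its 16 h level was less than 2-fold above that at 90 min. Tnfsf9, the ligand of the T cell receptor 4-1BB, fell from 975 and 1047 to 265 input reads (3.72-fold lower).

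Of 10 chemokines tested in each material, 8 had risen in input and 7 in footprints, and together they took 0.209%, 0.326% and 1.01% of all input reads and 0.444%, 0.688% and 2.04% of all footprint reads at 75 min, 90 min and 16 h. Of the 8 that did not enter the input test through 16 h alone, 6 had risen, and 5 were called with 20 counts required in each library. Ccl9 rose from 1559 and 2120 to 18977 input reads (10.6-fold) and Ccl2, which draws monocytes, from 1153 and 1912 to 9457 (6.31-fold). Ccl3 was already abundant at 75 min and rose from 4819 and 7562 to 20426 (3.38-fold). Ccl5 had 2, 12 and 511 input reads (73.5-fold) and reached 20 counts there only at 16 h. Cxcl10, the chemokine of activated T cells, had 1185, 2263 and 808 input reads and 2694, 5295 and 1621 footprint reads. The 16 h level was below both early ones, but by less than 2-fold against 75 min, so it was not called (-1.06 ± 0.34, adjusted p = 0.029 in input). Without the 75 min library 1 chemokine was called lower.

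Late effectors of macrophage activation were mixed in direction. Of 25 tested in input, 19 had risen and 3 had fallen; 7 entered only through 16 h, and of the other 18, 12 had risen and 3 had fallen. Nos2, the inducible nitric oxide synthase, had 6, 11 and 849 input reads (100.9-fold) and 5, 19 and 1695 footprint reads (125.3-fold). Hdc, which makes histamine, rose 103-fold in input (4, 8 and 616 reads). Lcn2, a protein that captures bacterial iron carriers, had 0, 0 and 2343, at least 781-fold. Nos2, Hdc and Lcn2 reached 20 counts only at 16 h, in input and in footprints alike. Ptgs2, the prostaglandin synthase COX-2, rose from 402 and 583 to 22909 input reads (5.57 ± 0.17), and Acod1, which makes itaconate, from 2429 and 4423 to 21623. The 3 that fell were Tlr2, a receptor for bacterial lipoproteins (9753, 11327 and 2150 reads, 4.79-fold lower), Icam1, an adhesion molecule (2700, 2723 and 538, 4.92-fold lower), and Nlrp3, the inflammasome sensor (5471, 5996 and 1675, 3.34-fold lower). Their early counts were all above their 16 h counts in footprints too. Of 20 antigen presentation and immunoproteasome genes tested in input, 14 had risen and 0 had fallen (median 1.52; 1 entered only through 16 h, and 13 of the other 19 had risen). Tap1, which pumps peptides into the endoplasmic reticulum, had 116, 97 and 1221 reads (11.7-fold).

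Several immediate early genes, whose transcription LPS starts without new protein synthesis, had fallen by 16 h. Of 25 tested, 2 rose and 8 fell in input (median -0.54), and in footprints 2 rose and 9 fell (median -0.48); 2 in each material reached 20 counts only early and 1 in input only at 16 h, and of the other 22 in input 1 had risen and 6 had fallen. Leaving out the 75 min library left 5 lower in each. Beside these counts, 11.3% of all genes tested in input had risen and 6.82% had fallen, and in footprints 12.1% and 7.74%. Egr2, a zinc finger factor, had 275, 356 and 30 input reads and 389, 537 and 33 footprint reads, 10.2-fold and 15.6-fold lower at 16 h (log2 -3.35 ± 0.27, adjusted p = 4.7e-05 in input). Srf, the serum response factor that drives many genes of this class, went from 586 and 578 to 165 (3.44-fold lower). Fosl2, an AP-1 subunit, went from 420 and 384 to 121 (3.24-fold lower). The calls of Egr2, Srf and Fosl2 held with either early library left out. Those of Btg2 in input (376, 253 and 77 reads) and Fosb in input (36, 25 and 1) did not hold without the 75 min library (-1.49, adjusted p = 0.078 and -4.23, adjusted p = 0.068). Fos itself had 95, 65 and 75 input reads (-0.06 ± 0.26, adjusted p = 0.87), so its level at 16 h lay within its early range. Dusp5, a phosphatase that inactivates nuclear ERK, went the other way, from 109 and 139 to 514 reads (4.24-fold higher).

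Feedback regulators of LPS signalling, the proteins that limit the response, moved in both directions: 5 of 26 tested rose in input and 7 fell, and in footprints 6 of 25 rose and 6 fell. Without the 1 member that entered only through 16 h, 4 of 25 rose in input. Among all genes tested in input, 11.3% had risen and 6.82% had fallen, and in footprints 12.1% and 7.74%. Whether the list differs from these shares was not tested. Errfi1, an inhibitor of the EGF receptor, fell from 1534 and 1585 to 200 input reads (7.61-fold lower). Tnfaip3, which encodes the ubiquitin editor A20, had 1549, 2633 and 465 input reads, 4.40-fold lower. Its call did not hold in the curve fits with an early library left out. There the log2 difference was -2.26 without the 75 min library and -1.35 without the 90 min library. Cish, an inhibitor of cytokine receptor signalling, fell from 106 and 199 to 36 (4.13-fold lower). Nfkbiz, a nuclear IkappaB protein, fell from 3543 and 2651 to 991 in input (-1.61 ± 0.16), but without the 75 min library its adjusted p was 0.088. Irak3, an inhibitory kinase of the TLR pathway, rose from 189 and 198 to 651 (3.45-fold), and Sqstm1, the autophagy receptor p62, from 4770 and 5292 to 16096 (3.28-fold). Nfkbia, which encodes the main inhibitor of NF-kappaB, had 3806, 5131 and 3684 reads and Socs3 879, 920 and 1241, and neither was called.

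**Figure D2:**
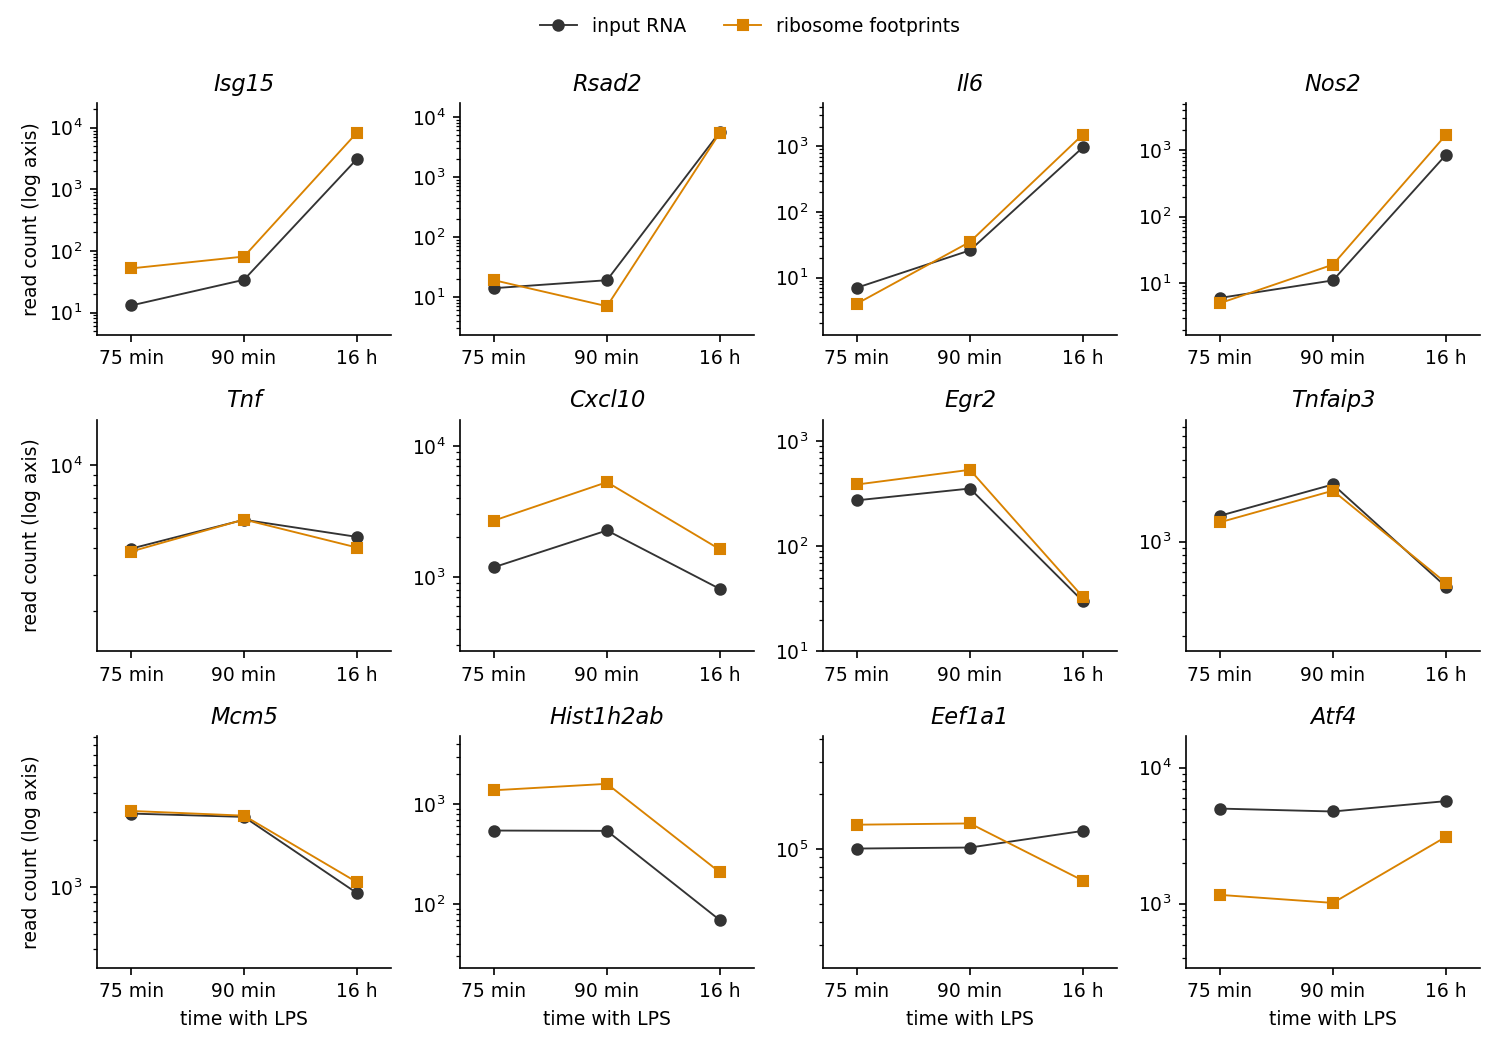
Read counts of 12 genes in the input and footprint libraries at 75 min, 90 min and 16 h, on a log axis whose range differs between genes, with time points evenly spaced and not to scale. Isg15, Rsad2, Il6 and Nos2 stand far above their early counts at 16 h, Tnf at 16 h (4541 in input) lies between its early counts, and Egr2, Tnfaip3, Mcm5 and Hist1h2ab lie below theirs; for Eef1a1 the footprints fall while the input does not, and for Atf4 the footprints rise.

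Defining macrophage markers were present in all 3 input libraries. Cd68 had 1592, 1699 and 1723 input reads, and Spi1, the lineage factor PU.1, had 1676, 1878 and 1274; neither was called. The 35 macrophage identity genes together took 0.720%, 0.735% and 0.877% of input reads. Of 32 tested in input, 7 had risen and 6 had fallen (median -0.02); 3 entered only through 16 h and 4 only through the early libraries, and of the other 25, 5 had risen and 4 had fallen. The shares among all genes tested in input were 11.3% higher and 6.82% lower. Cd36, a scavenger receptor for oxidised lipid, rose from 65 and 100 to 992 reads (12.3-fold). Adgre1, which encodes F4/80, rose from 743 and 713 to 2191, and Fcgr2b, the inhibitory Fc receptor, from 51 and 60 to 328 (6.04-fold). Cd101 fell from 137 and 132 to 6 (21.5-fold lower) and reached 20 counts only early. Cx3cr1, the fractalkine receptor, fell from 609 and 554 to 106 (5.35-fold lower), Trem2, a lipid-sensing receptor, from 670 and 676 to 154 (4.26-fold lower), and Csf1r, the receptor of the main macrophage growth factor, from 3944 and 4166 to 1740. Markers of other cell types were scarce: the summed level of each of 6 lists stayed at or below 0.0073% of reads in every library, 0 epithelial markers reached the test, and of fibroblast markers Lum alone did, with 0, 0 and 37 input reads. Among 4 osteoclast markers tested, Dcstamp (85, 99 and 265) had risen, and Mmp9 (1, 1 and 42) was called higher but entered only through 16 h. The same holds for Lum, for the dendritic cell marker Itgax (1, 6 and 38) and for the 1 neutrophil and mast cell marker tested, S100a8 (3, 1 and 51). The other dendritic cell marker tested, Kmo, had 94, 77 and 14 and was called lower, having entered only through the early libraries. Of 2 lymphocyte markers tested, Lck (20, 26 and 88) had risen. Their part in the other results was not tested.

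Cell cycle genes were lower at 16 h in both materials. Of 49 DNA replication genes tested, 31 had fallen in input (median -1.17) and 27 in footprints (median -1.12), and 0 had risen; with total-count scaling 18 had fallen in footprints. Mcm5, a subunit of the replicative helicase, had 2939, 2799 and 913 input reads and 3055, 2850 and 1072 footprint reads (-1.62 ± 0.09 SE, adjusted p = 6.3e-06 in input). Tk1, the S-phase thymidine kinase, fell from 784 and 744 to 187 (3.99-fold lower) and Pole, the leading-strand polymerase, from 1242 and 1193 to 340 (3.49-fold lower). Of 55 mitosis genes, 53 had fallen in input (median -1.63) and 53 in footprints (median -1.77). Cenpf, a kinetochore protein, had 2633, 2458 and 479 input reads and was 5.18-fold lower, and Ncapd2, a condensin subunit, had 2007, 2027 and 396 and was 4.97-fold lower. For each of these genes the early libraries lay close together and the 16 h library below both.

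Replication-dependent histone genes fell furthest as a list: 54 of 54 tested had fallen in each material, with medians of -2.28 and -2.31, and of the 46 that did not enter the input test through the early libraries alone 46 had fallen. They took 0.635%, 0.615% and 0.148% of input reads and 1.26%, 1.33% and 0.323% of footprint reads. Hist1h2ab had 545, 541 and 69 input reads, 7.67-fold lower at 16 h. Histone genes have near-identical copies, so how their reads were shared out among them is uncertain. Footprint reads per input read of the summed histones were 1.98, 2.17 and 2.18, and in the density fit 0 of 54 were called (median -0.10 beside -0.016 over all genes). The E2F sites TTTCCCGC and TTTGGCGC were searched on both strands of the 250 bases before the start. They were present in 6 of 40 promoters of DNA replication genes (15%) and in 7.55% of the genes called lower in input. Among all genes tested there the share was 3.3%. Of mitosis promoters 1 of 46 (2.17%) held them, and of histone promoters 1 of 49 (2.04%). The stretch of the Mcm5 promoter at chr8:75109349-75109508 (plus strand, GRCm38.p6, RefSeq) is shown because it holds such a site, in capitals.
Mcm5: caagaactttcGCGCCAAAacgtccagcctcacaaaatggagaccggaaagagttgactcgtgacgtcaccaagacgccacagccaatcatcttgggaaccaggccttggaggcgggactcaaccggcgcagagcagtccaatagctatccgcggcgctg

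Metabolic and housekeeping lists had medians nearer to 0. Over all genes tested in input, 11.3% had risen and 6.82% had fallen. Ribosome biogenesis genes, which make rRNA into subunits, fell in part: 11 of 45 in input (median -0.68) and 10 in footprints (median -0.79), or 5 in footprints with total-count scaling. Rrs1 went from 869 and 936 to 305 input reads (2.89-fold lower) and Nop58, a core protein of small nucleolar particles, from 4830 and 4504 to 1741 (2.62-fold lower). Of 24 cholesterol synthesis genes 4 had fallen in input and 0 had risen (median -0.54). Hmgcs1, an early enzyme of the pathway, went from 3388 and 3175 to 923 (3.47-fold lower) and Insig1, which holds SREBP in the endoplasmic reticulum, from 1961 and 1361 to 424 (3.82-fold lower). Of 14 LXR targets and lipid efflux genes, 4 had risen and 1 had fallen; 1 entered only through the early libraries, and of the other 13, 4 had risen and 1 had fallen. Abca1, the cholesterol exporter, rose from 36 and 63 to 250 reads, and Fasn, fatty acid synthase, fell from 6403 and 6614 to 1747 (3.64-fold lower). Of 35 lysosome genes 11 had risen and 1 had fallen in input (median 0.65), among them Ctsl, which encodes a protease of the organelle and rose from 1834 and 1711 to 7454 (4.31-fold).

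Nuclear genes of energy metabolism were called in small numbers, beside 11.3% higher and 6.82% lower among all genes tested in input. Of 23 glycolysis genes 2 had risen in input, a share near the 11.3% of all genes, among them Hk3, a hexokinase of myeloid cells (217, 244 and 1220 reads, 5.42-fold), and 3 in footprints. Of 23 TCA cycle enzymes 1 had fallen in input (3 without the 75 min library), and of 75 nuclear-encoded oxidative phosphorylation genes 1 had fallen (3 without the 75 min library), with medians of -0.35 and -0.46. By adjusted p alone, with no fold required, 14 of the TCA cycle enzymes and 58 of the oxidative phosphorylation genes were lower in input, and 1 and 2 higher. Of the 13 mitochondrially encoded genes 7 had fallen in input (median -1.17). They fell unevenly: mt-Nd3, a subunit of complex I, went from 5864 and 5517 to 1490 input reads (3.73-fold lower), whereas mt-Co1, a subunit of complex IV, had 109002, 113027 and 102718 (-0.08 ± 0.06, adjusted p = 0.3). In footprints 3 mitochondrial genes had fallen, or 8 without the 75 min library and 1 with total-count scaling. Footprint reads of these genes were scarce, at 0.0835, 0.110 and 0.114 per input read. Whether the footprint protocol captured mitochondrial and cytosolic ribosomes alike was not tested, so these ratios are not a measure of translation.

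Of 21 ATF4 targets tested, 5 rose in input and 0 fell (8 rose without the 90 min library). In footprints 8 rose and 1 fell, and of the 20 that did not enter through 16 h alone 7 rose. Cth, which makes cysteine, rose from 69 and 83 to 1499 input reads (20.2-fold) and Slc7a11, the cystine importer, from 262 and 356 to 1947 (6.45-fold). Of 25 endoplasmic reticulum folding genes 3 had risen in input, a share near the 11.3% of all genes, among them Ero1l, the oxidase that forms disulfide bonds (1120, 1222 and 3892 reads, 3.40-fold). Of 16 heat shock and cytosolic chaperone genes 0 had risen and 1 had fallen (median -0.35), the latter a share near the 6.82% of all genes called lower in input. Of 25 NRF2 target and iron handling genes 6 had risen and 1 had fallen in input, or 5 and 1 of 24 without the member that entered only through 16 h; Hmox1, which degrades haem, rose from 292 and 285 to 2132 (7.57-fold). Among 28 cell death and survival genes 8 had risen and 1 had fallen in input, or 7 and 1 of the 27 that did not enter through 16 h alone. Tnfrsf1b, the second TNF receptor, rose from 105 and 135 to 4085 (34.8-fold), and Mcl1, a survival protein of the BCL2 family, fell from 4733 and 4466 to 2077 (2.16-fold lower).

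**Figure D3:**
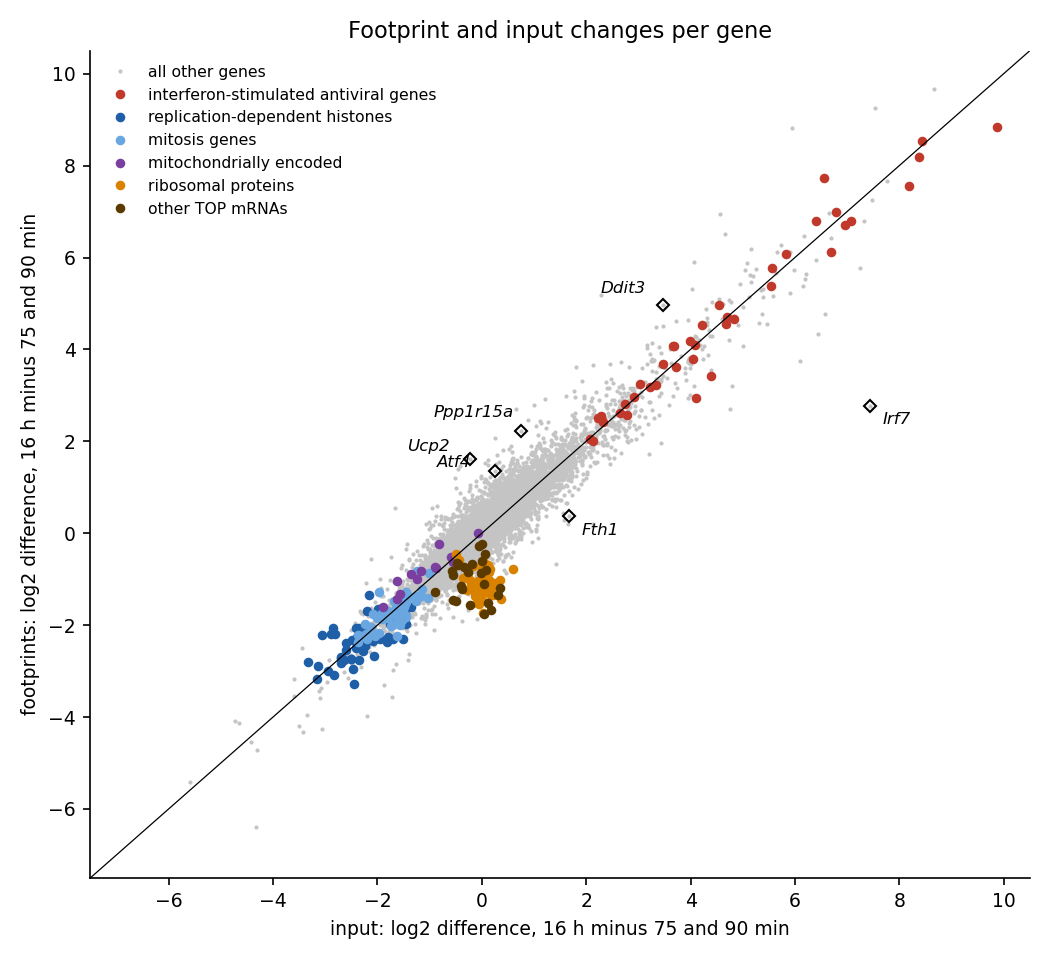
Log2 difference between 16 h and the early libraries in footprints (y axis) against input (x axis) for 9332 genes, without 28 that had 0 counts in both early libraries of a material; the diagonal marks equal change. Most genes lie along the diagonal, ribosomal protein and other TOP mRNAs form a group below it near 0 on the x axis, and Irf7 and Fth1 lie below it at higher input while Atf4, Ucp2, Ppp1r15a and Ddit3 lie above it.

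Input and footprint differences were alike over genes (Pearson's r 0.946 and Spearman's rho 0.905 across 9360 genes, which are not independent and come from the same lysates). The main departure was the translation machinery itself. Of 77 ribosomal protein genes tested in input, 0 had risen and 0 had fallen (5 were higher and 7 lower by adjusted p alone), and the list took 8.76%, 8.45% and 8.54% of input reads at 75 min, 90 min and 16 h. In footprints 49 of 77 had fallen (median -1.10), and their share went from 10.0% and 9.92% to 5.12%. In density 71 of 75 had fallen, with a median of -1.17 beside -0.016 over all genes. Total-count scaling left 66 of 75 lower in density (median -0.97) and 25 lower in footprints (median -0.95). The fall covered both subunits: 28 of 29 small subunit genes (median -1.23) and 41 of 44 large subunit genes (median -1.11). The 4 not called were Rpl13a, Rpl15, Rpl7l1 and Rps27l. Rpl7l1 and Rps27l are relatives of ribosomal proteins outside the canonical set. Rps27l had 1706, 1574 and 1141 input reads and 2366, 2629 and 2046 footprint reads, and its density differed by 0.03 ± 0.15 (adjusted p = 0.97).

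Footprint reads per input read are unscaled, and on that scale the median of all genes was 0.19 higher (log2) at 16 h. Summed over the list, ribosomal protein mRNAs gave 1.141 footprint reads per input read at 75 min, 1.173 at 90 min and 0.599 at 16 h. Other TOP mRNAs, which include those of translation factors and Tpt1, gave 1.447, 1.464 and 0.740. In density 13 of 26 of them had fallen (median -0.68), with 0 of 26 called in input. For both lists the early values lay side by side and the 16 h value well below them. Ribosome biogenesis genes, which also serve the ribosome but are not TOP mRNAs as a class, gave 1.018, 1.059 and 1.11, with a density median of -0.08. Interferon-stimulated genes gave 1.042, 1.029 and 1.321, with a density median of -0.01. In these lists 0 of 45 and 0 of 43 genes were called in density, near the shares of all genes (0.609% higher and 1.2% lower).

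Single genes showed the same separation of input and footprints. Eef1a1, the elongation factor that brings tRNA to the ribosome, had 100652, 101944 and 125686 input reads but 135901, 138050 and 67248 footprint reads, a density 2.91-fold lower at 16 h. Eef2, the translocation factor, had 26183, 27728 and 32755 input reads and 30297, 28233 and 12795 footprint reads, 3.20-fold lower in density. Pabpc1, the poly(A) binding protein, had 9987, 11271 and 10747 against 11073, 10305 and 3544, 3.51-fold lower. In each of these, input at 16 h was at or above at least 1 early library while footprints were below both. Tpt1, an abundant TOP mRNA for a calcium-binding protein, had the largest fall among other TOP mRNAs, from 2.60 and 2.40 to 0.793 footprint reads per input read (log2 -1.85 ± 0.13 SE, adjusted p = 3.5e-18). Rps20 fell from 0.908 and 0.941 to 0.305 and was 3.49-fold lower, and Rps19 was 3.38-fold lower. Rpl39 had 2454, 2249 and 2571 input reads and 4435, 4955 and 2100 footprint reads, 2.81-fold lower in density. Rpl22l1, a paralogue of Rpl22, was called in neither material, with 1674, 1564 and 2397 input and 2013, 2060 and 1332 footprint reads, and its density was 2.61-fold lower. Ribosomal protein genes and Eef1a1 have many processed pseudogenes, and the sources used here do not give how reads that match several places were counted.

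Because the TOP motif lies at the first bases of the mRNA, runs of at least 8 pyrimidines (C or T) within 30 bases of the RefSeq start were counted, a rule set after these results were known. Such a run was present in 56.9% of ribosomal protein promoters, 42.1% of other TOP mRNAs, 50.6% of the genes called lower in density (41 of 81 matched), 31.2% of those called higher and 24.9% of all genes tested in density. The genes called lower in density include members of the ribosomal protein and other TOP lists. Outside those lists, 8 of 21 matched genes called lower held such a run (38.1%). Replication-dependent histones, whose density was not called, held it in 42.9%. The sequence around the annotated start, 25 bases before to 20 after, is shown for 3 genes of lower density, chosen because they hold such a run, in capitals. In Rpl39 the first of the 2 runs lies before the start. Eef1a1 is at chr9:78481705-78481749 (minus strand), Rpl39 at chrX:37085203-37085247 (minus strand, with 2 runs) and Rpl22l1 at chr3:28805483-28805527 (plus strand), in GRCm38.p6.
Eef1a1: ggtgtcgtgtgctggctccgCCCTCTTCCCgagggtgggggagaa
Rpl39: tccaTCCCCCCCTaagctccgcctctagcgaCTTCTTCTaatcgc
Rpl22l1: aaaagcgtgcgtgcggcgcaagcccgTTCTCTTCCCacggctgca

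**Figure D4:**
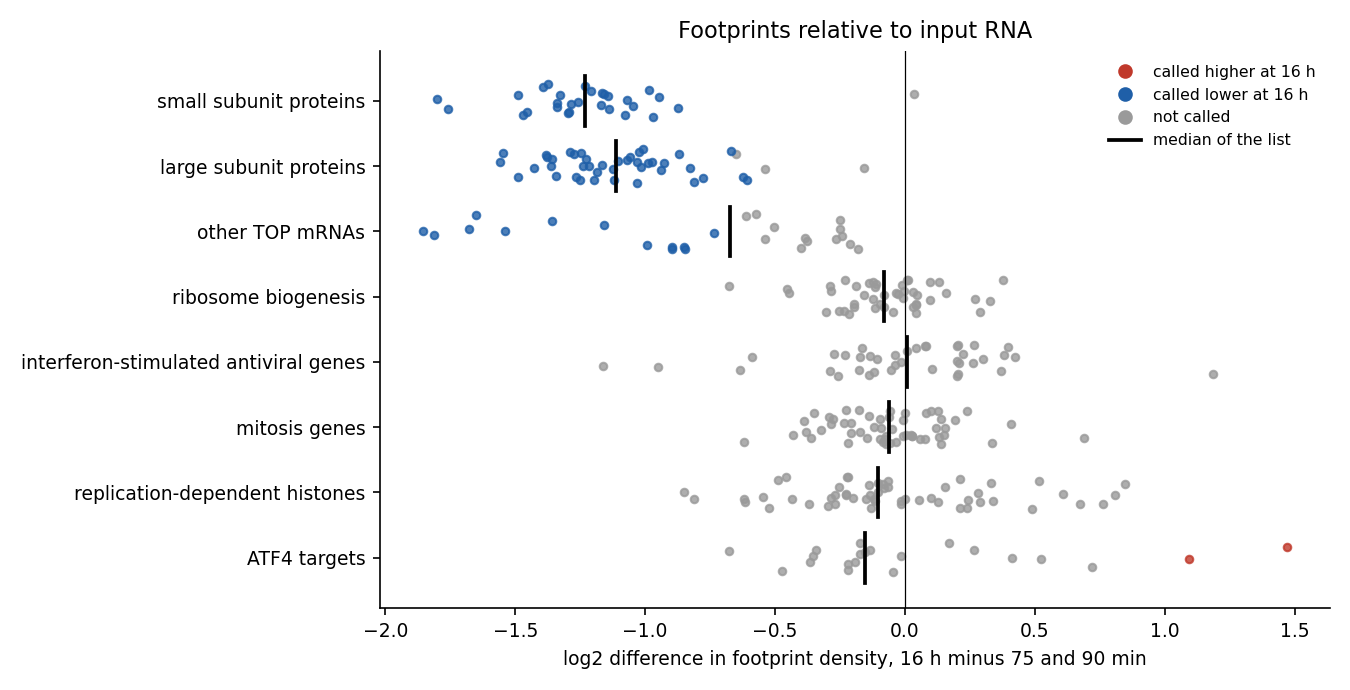
Log2 difference in ribosome density between 16 h and the early libraries for the genes of 8 lists, with the list median as a bar and 4 genes at 0 counts in any early library of either material left out. Small and large subunit ribosomal proteins (medians -1.23 and -1.11) and other TOP mRNAs (-0.68) lie below 0, and the other lists lie around 0.

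Of the 112 genes with lower density, 71 were ribosomal proteins (63.4%), 13 were other TOP mRNAs and 28 were neither. Irf7, the transcription factor that amplifies interferon production, stood apart from the rest of the interferon response. It had 35, 27 and 5300 input reads, a 174.5-fold rise, but 24, 20 and 169 footprint reads, a 6.86-fold rise. Its footprint reads per input read were 0.686 and 0.741 early and 0.0319 at 16 h, so its density was 25.6-fold lower (log2 -4.68 ± 0.36 SE, adjusted p = 2.5e-17). Both early ratios rest on 20 to 24 footprint reads. Reads of Irf7 and of any transcript that overlaps it cannot be told apart, since the sources used here do not give how strand and overlapping genes were treated. Fth1, the heavy chain of ferritin, whose mRNA carries an iron-responsive element, rose in input from 16321 and 19977 to 56378 reads while its footprints had 3871, 3730 and 5514. That made 0.237, 0.187 and 0.0978 footprint reads per input read, 2.48-fold lower in density (adjusted p = 1.6e-12), with pseudogene copies as a limit again. Ercc1, a DNA repair nuclease subunit, rose in input (46, 70 and 247) with 54, 41 and 61 footprint reads (density -1.93 ± 0.33); without the 75 min library its adjusted p was 0.21. Qars, the glutaminyl-tRNA synthetase, was the 1 synthetase of 20 called in density (-0.84 ± 0.15, adjusted p = 2.4e-05). Of the chaperones, Hspa8 and Hsp90ab1 were called lower (1.28, 1.24 and 0.930, and 2.65, 2.53 and 1.70 footprint reads per input read), but 0 of the list were without the 75 min library and 1 without the 90 min library.

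Among the 57 genes with higher density, 0 were ribosomal proteins or other TOP mRNAs. This count was less stable than that of lower genes: it was 14 to 15 with either early library left out, while the count of lower genes was then 83 to 86. Those fits also used a curve over the LPS libraries from 15 min on, so omission and change of model cannot be told apart. Ucp2, a carrier of the inner mitochondrial membrane, had 1467, 1640 and 1295 input reads and 425, 334 and 1291 footprint reads. Its 0.290 and 0.204 footprint reads per input read rose to 0.997, a 3.55-fold higher density (log2 1.83 ± 0.16 SE, adjusted p = 1.4e-14). Ibtk, which binds the kinase BTK, had 0.162, 0.168 and 0.524, a 2.76-fold rise. Atf4 had 5001, 4761 and 5674 input reads and 1161, 1014 and 3100 footprint reads, so that its mRNA changed by 0.25 ± 0.07 on the log2 scale and its density rose 2.14-fold (adjusted p = 2.2e-09). The density calls of Ucp2, Ibtk and Atf4 held with either early library left out. For these genes the footprints of the 16 h library stood above both early ones, with input nearly level.

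Of the genes known to act with Atf4 in the stress response, Ppp1r15a encodes GADD34, the subunit that brings a phosphatase to eIF2, and its mRNA also carries upstream reading frames. It had 709, 499 and 990 input reads and 38, 33 and 185 footprint reads, and 0.0536, 0.0661 and 0.187 footprint reads per input read, a 2.75-fold rise in density (adjusted p = 3.6e-06). Without the 75 min library its density difference was 1.14 with an adjusted p of 0.24. Ddit3, which encodes the pro-apoptotic factor CHOP and is a target of ATF4, rose in input from 42 and 44 to 470 reads and in footprints from 10 and 3 to 229, where it reached 20 counts only at 16 h. Its density rise of 2.77-fold had an adjusted p of 0.05 after rounding and was lost with either early library left out (adjusted p = 0.21 without 75 min and 0.78 without 90 min), so 1 of the 2 density calls in the ATF4 list, Atf4 itself, remained. Dst, a cytoskeletal linker, had 1396, 1296 and 2627 input reads and 41, 29 and 270 footprint reads (density 1.78 ± 0.22). Furin, a protease of the secretory pathway, had 0.328, 0.294 and 0.621 footprint reads per input read, and Pla2g5, a secreted phospholipase, had 0.227, 0.261 and 0.726; the call of Furin was lost without the 90 min library (adjusted p = 0.093) and that of Pla2g5 without the 75 min library (adjusted p = 0.13). E2f1, a transcription factor of S phase, was the 1 DNA replication gene called in density: input had 201, 180 and 101 reads and footprints 62, 52 and 82 (1.24 ± 0.30), and its adjusted p was 0.13 and 0.11 with the 75 or the 90 min library left out. The density calls of Gpr132 and Man2a2 were lost without the 90 min library (0.98, adjusted p = 0.26 and 0.90, adjusted p = 0.12) and that of Cd81 without the 75 min library (0.99, adjusted p = 0.1). That of Tmem184c was lost without either (adjusted p = 0.22 and 0.065), as was that of Nlrc5, the activator of MHC class I genes, whose 218, 166 and 730 input reads and 26, 15 and 176 footprint reads gave a density difference of 0.97 ± 0.28 (adjusted p = 0.29 and 0.49). Calls that held with either library left out included those of Ccni, a cyclin family member with 999, 1061 and 934 input and 106, 100 and 234 footprint reads, and Mxi1, an antagonist of MYC with 293, 242 and 223 input and 100, 85 and 204 footprint reads.

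**Figure D5:**
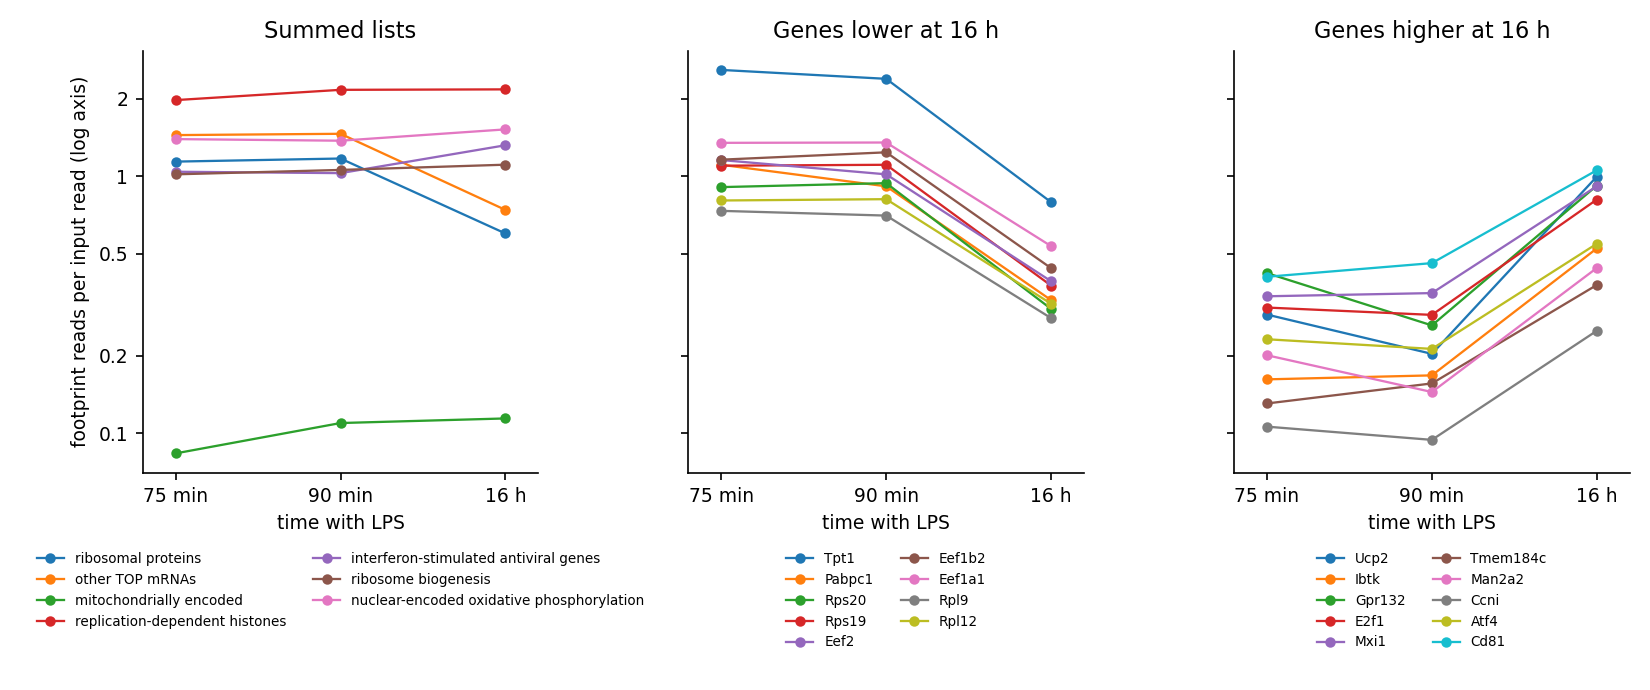
Footprint reads per input read at 75 min, 90 min and 16 h on a log axis, for summed gene lists (left) and for the genes called lower (middle) and higher (right) in density with the largest differences among those with at least 50 counts in each of the 6 libraries. The middle panel leaves out RP23-79J21.3, which met this rule (0.770, 0.746 and 0.272) and is not among the listed ribosomal protein or other TOP mRNAs. The ratios are unscaled and time points are evenly spaced and not to scale. Ribosomal protein and other TOP mRNAs drop to 0.599 and 0.740 at 16 h while ribosome biogenesis genes (1.11) do not, Tpt1 and Pabpc1 drop to 0.793 and 0.330, and Ucp2 and Atf4 rise to 0.997 and 0.546.

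Over all genes with at least 200 counts in a library of the material, the largest rises and falls fell partly outside the lists above. Slfn1, a member of the Schlafen family, and Pdpn, which encodes podoplanin, a membrane glycoprotein, had 0 reads in both early input libraries and 322 and 310 at 16 h, at least 107.3-fold and 103.3-fold higher. They also had 0 early footprint reads and 556 and 657 at 16 h. Among those that fell, Ranbp3l had 1073, 916 and 20 input reads and 1096, 1055 and 28 footprint reads, 48.2-fold and 42.6-fold lower. Alox5, which starts leukotriene synthesis, had 345, 349 and 28 input reads (12.1-fold lower in input and 11.7-fold lower in footprints). The control genes Actb, Gapdh, Hprt, Tbp and Ppia were not called in input, with log2 differences of 0.32, 0.25, -0.42, -0.19 and -0.48.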

How the data were processed

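Members and gene lists were chosen with earlier results of these data known. The authors deposited 1 table with read counts per gene and, per the file headers, a normalised signal for each library; only the counts were used. The submitters' processing notes name Bowtie 0.12.8, DESeq2 1.18.1 and mm10. The sources used here do not give how reads were counted or why totals are equal.

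TMM factors scaled the counts, and edgeR 4.0.16 in R 4.3.3 (glmQLFit, glmQLFTest) fitted them. Density was the interaction of material and 16 h, with the time point as a block. Pairwise folds used log2 CPM with 0.5 counts added. Each fit had 1 residual degree of freedom. Sharing the spread across genes added 6.44 degrees of freedom in input and 68.9 in density, and for footprints 1 spread was shared by all genes. Footprint and density p-values are therefore small and rest mostly on a spread shared across genes. Scripts were tested on simulated data. DESeq2 1.42.0 served as an alternative. Named genes were each list's 3 largest calls per direction and material, any member of the cytokine, chemokine, immediate early, feedback and interferon-stimulated lists, the 10 largest calls per direction (at least 200 counts in a library, or for density 50 in each) and the control genes. Irgm1, Mcm5, Rpl39, Rpl22l1, Ptgs2, Acod1, Irf9, Fth1, Csf1r, Adgre1, mt-Co1, Hsp90ab1, Rps27l, Ercc1, Pla2g5, Furin, Dst and the other genes outside that rule were chosen after their values were seen.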

Additional observations from a re-analysis of the deposited data

How the results depend on the processing

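Counts of called genes stayed within 1.5 times their value under total-count scaling, DESeq2 size factors, the DESeq2 Wald test, no filter, a filter of 20 counts in each library, an early curve over 15 to 90 min and either early library left out, except that of genes with higher density (57): it was 217 with total-count scaling, 14 with the Wald test, 35 with the curve, 16 with no time-point block and 14 to 15 with an early library left out. Without the fold criterion, 2775 genes were higher and 2704 lower in input and 2638 higher and 2572 lower in footprints. With the 75 or the 90 min library left out, 1218 or 1229 genes were higher and 761 or 796 lower in input, and 1357 or 1347 higher and 840 or 845 lower in footprints. Without the 90 min library the footprint difference turned positive for Tnf (-0.34 to 0.39 over both omissions), Atf3 (-0.49 to 0.19) and Nfkbia (-0.44 to 0.12), none of which was called. Of the single-gene results, 60 lost an adjusted p under 0.05 without the 75 min library, 28 without the 90 min library, 45 with total-count scaling and 59 with the Wald test. The cause was not tested. No paired analysis was possible because each group held 1 library; the time point, shared by the input and footprints of a lysate, was already the block of the density fit. Equal library totals hide the original depth, so counts near 20 limit what could be detected, and 1 library per time point gives no biological replicate.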
